A study of Homo sapiens with 6 samples.

Results

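The cytosolic ribosome is built from ribosomal RNA and a set of ribosomal proteins, each encoded by its own gene, and the transcripts of these genes were followed here after loss of PCBP1. Members were the protein-coding genes of GENCODE release 44 whose symbol is RPL or RPS with a number and an optional A, X, L, L1 or AL, together with RPSA, RPLP0, RPLP1 and RPLP2. The rule found 85 of the 62252 genes in the tables, 53 of the large subunit and 32 of the small subunit, with 854 annotated transcripts. FAU, which encodes a ribosomal protein fused to a ubiquitin-like protein, and RACK1 have other symbols and fell outside the rule.

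RNA came from K562 cells, an established human erythroleukemia line, in 6 poly-A selected libraries. In 3 libraries (shCtrl) the cells carried a pLKO.1 lentiviral hairpin against luciferase, and in 3 (shPCBP1) a hairpin against PCBP1, an RNA-binding protein with a preference for C-rich sites that also delivers iron in the cytosol. Both groups had been exposed to virus with polybrene at 8 µg/ml and selected in puromycin at 3 µg/ml, so neither group was untreated. The comparison asked how loss of PCBP1 altered the transcriptome. A single hairpin sequence against PCBP1 was named for these samples, and nothing in the labels said that the libraries of a group came from separate cultures, so p-values measure the spread between these libraries only.

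Ribosomal protein mRNAs are among the most abundant messages of a dividing cell. In vertebrates most of them start with a 5′ terminal oligopyrimidine tract, or TOP, a C at the cap followed by an unbroken run of C and U, through which mTOR and the cap-binding protein LARP1 control their translation and stability together. In erythroid cells a balanced supply matters, since loss of one copy of any of several of these genes causes Diamond-Blackfan anemia.

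The first bases of several members are shown because they carry this tract, or lack it, and because these members are the ones the comparison below turns on or that headed the list by level. Each line gives 15 bases before the RefSeq transcript start and 15 from the start onward on GRCh38.p14, 5′ to 3′ on the gene's own strand, with capitals marking the pyrimidine run that opens the transcript.
RPS18 (chr6:33272060-33272089, plus): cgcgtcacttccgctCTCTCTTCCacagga
RPS12 (chr6:132814554-132814583, plus): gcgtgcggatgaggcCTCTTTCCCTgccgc
RPS21 (chr20:62387088-62387117, plus): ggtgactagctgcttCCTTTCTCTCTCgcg
RPS3A (chr4:151099613-151099642, plus): cgactcccacttccgCCCTTTTggctctct
RPS27A (chr2:55232673-55232702, plus): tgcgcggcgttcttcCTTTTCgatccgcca
RPL39 (chrX:119791616-119791645, minus): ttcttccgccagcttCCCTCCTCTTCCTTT
RPS9 (chr19:54200843-54200872, plus): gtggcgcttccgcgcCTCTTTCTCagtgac
RPL10A (chr6:35468386-35468415, plus): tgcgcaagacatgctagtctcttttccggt
RPL9 (chr4:39458908-39458937, minus): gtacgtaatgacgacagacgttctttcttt
RPL7L1 (chr6:42879601-42879630, plus): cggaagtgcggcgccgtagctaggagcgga
RPS18, RPS12, RPS21, RPS3A, RPS27A, RPL39 and RPS9 began with a pyrimidine tract. The annotated starts of RPL10A and RPL9 were an A with a pyrimidine stretch a few bases in, and RPL7L1, a paralog, had no tract in this window.

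RefSeq start sequences were matched to 68 members. A C at the first base was found in 50 of them (73.5%), against 11.7% of the 10305 protein-coding genes with an adjusted p and a start sequence. A C followed by at least 4 further C or T on the gene's strand was found in 46 members (67.6%), against 5.55% of those protein-coding genes. The RefSeq start lay within 10 bases of the gene annotation's start in 45 of the 68 members, and 12330 bases from it in RPS29. Annotated starts can also lie away from the start used in a given cell. A missing tract here says only that these letters did not open the annotated transcript. Over the first 50 transcribed bases, the median C content was 28% in the members and 30% in the protein-coding genes.

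PCBP1 itself checked the labels. Its normalized counts (counts divided by each library's DESeq2 size factor) were 40566, 38409 and 37799 in the shCtrl libraries and 6625, 7277 and 7221 in the shPCBP1 libraries. The shPCBP1 libraries held 18.1% of the shCtrl level, a log2 fold change of -2.47 (± 0.044 SE, edgeR quasi-likelihood adjusted p = 2.21e-14). Total estimated counts ranged from 83033656 to 140522444 in shCtrl and from 67066747 to 85121124 in shPCBP1. The difference between length and effective length of long transcripts, which follows the fragment length of a library, was 338 to 354 bases in shCtrl and 347 to 364 bases in shPCBP1. The cell type markers fitted the label K562: GATA1 lay between 203 and 217 TPM and the fetal globin gene HBG2 between 12681 and 14991 TPM, while CD3E, MPO and ALB stayed at or under 0.129 TPM. The epithelial marker EPCAM was present at 26.7 to 38.1 TPM.

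Levels were compared between genes in TPM (a level scaled by transcript length and by the library total). The 77 members other than the paralogs lay within an 8.58-fold range of mean TPM, from 654 TPM for RPS26, a small subunit protein at the mRNA exit channel, to 5615 TPM for RPS18, a protein of the small subunit head. Their median was 2129 TPM, and 60 of the 100 genes with the highest TPM were members.

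RPS18 headed the order in both groups, at 5720, 5953 and 5882 TPM in shCtrl against 5236, 5428 and 5469 TPM in shPCBP1. RPS27, a zinc-finger protein of the small subunit, followed at 4511, 4816 and 4433 TPM in shCtrl against 4400, 4555 and 4503 TPM in shPCBP1. RPL41, which encodes a very short basic peptide, stood at 4541, 4623 and 4521 TPM in shCtrl against 4215, 4278 and 4234 TPM in shPCBP1. The shPCBP1 values were lower than every shCtrl value for RPS18 and RPL41 but overlapped them for RPS27. RPS12, a small subunit protein, came next at 4436, 4456 and 4695 TPM against 4218, 4133 and 4276 TPM, with no overlap. RPS21, also of the small subunit, stood at 4103, 4417 and 4405 TPM against 4299, 4262 and 4330 TPM, and its groups overlapped. In the DESeq2 gene test described below, RPL41 (log2 fold change -0.047, adjusted p = 0.346) and RPS12 (-0.064, adjusted p = 0.0977) did not pass. Normalized counts of the 2 groups overlapped for RPL41 and were separate for RPS12. The members as a set also had a lower share of TPM in shPCBP1, as given below. Below RPS18, the levels of RPS27, RPL41, RPS12 and RPS21 ran into each other, with mean values between 4303 and 4537 TPM. Library values overlapped from one gene to the next. The mean transcript lengths of RPS27 and RPS21 were 354 and 363 bases, near the fragment length of these libraries. Their TPM, and so their places in the order, rest on estimated effective lengths.

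**Figure D1:**
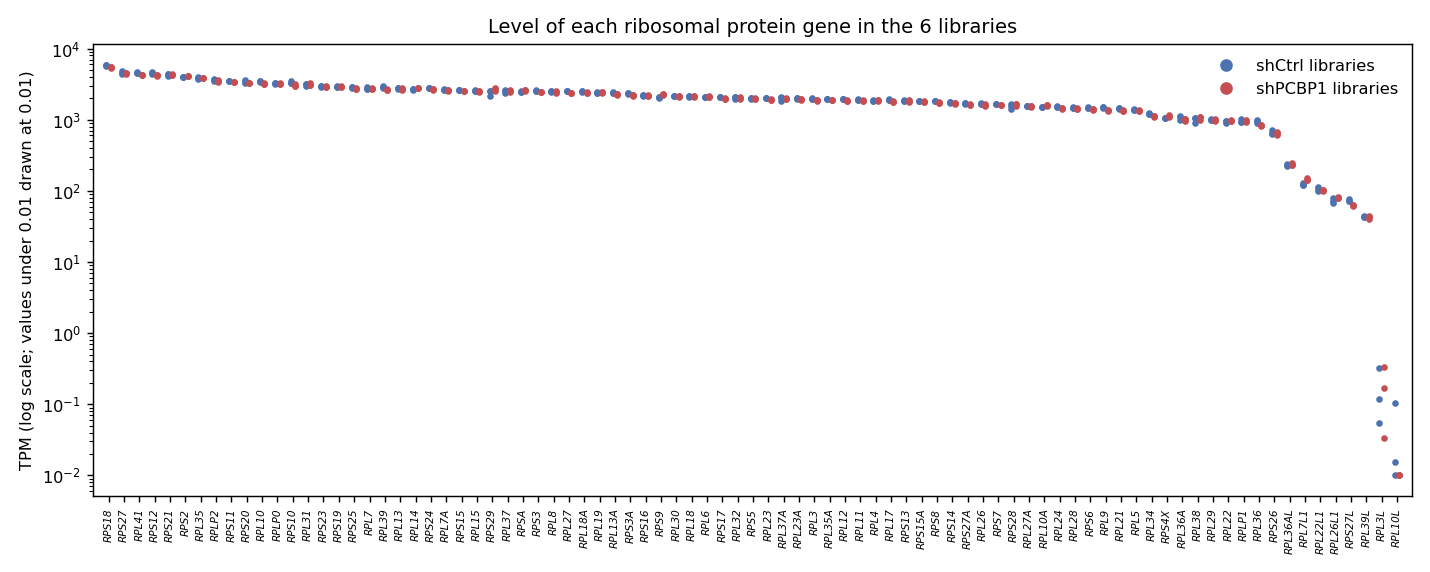
TPM on a log scale for each of the 85 ribosomal protein genes in the 3 shCtrl and 3 shPCBP1 libraries, 1 point per library, ordered by mean TPM. From RPS18 at 5615 TPM to RPS26 at 654 TPM the core genes form a shallow slope, the expressed paralogs have means of 233 TPM or less, and RPL3L and RPL10L have means of 0.172 and 0.0202 TPM.

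The summed level of the members was slightly lower after knockdown. They took 17.9%, 18.1% and 17.9% of all TPM in the shCtrl libraries and 17.4%, 17.5% and 17.6% in the shPCBP1 libraries. Every shPCBP1 library was below every shCtrl library, and the means, 17.98% ± 0.097 and 17.52% ± 0.108 (SD, n = 3 each), differed by -0.461 percentage points, a ratio of 0.974. As a share of estimated counts, where short transcripts weigh less, the means were 6.35% and 6.18%. On normalized counts, which are scaled to the typical gene, the summed members had a ratio of 0.999, so the lower TPM share was not seen on that scale. In bulk RNA, less of these messages per cell and a smaller number of cells rich in them cannot be told apart, nor can a lower share be told from a higher level of other RNA.

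Both subunits had a lower share on the TPM scale. Large subunit genes took 9.87% ± 0.0658 of TPM in shCtrl and 9.59% ± 0.0404 in shPCBP1, and small subunit genes 8.11% ± 0.0594 and 7.93% ± 0.0675 (SD, n = 3). The ratio of summed large to summed small subunit TPM was 1.227, 1.218 and 1.205 in shCtrl against 1.215, 1.208 and 1.205 in shPCBP1. These ratios overlapped, so no shift of the balance between the subunits was detectable with these libraries.

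Gene by gene, PCBP1 knockdown left the members close to their control level: no member differed by more than 0.25 on the log2 scale in the DESeq2 fit described next (RPL7L1 reached 0.253 with average-length offsets and 0.263 without shPCBP1 replicate 1), and those that passed the test did so by small steps in both directions. The test was DESeq2 (Wald, two-sided) on estimated counts summed per gene, with Benjamini-Hochberg adjustment over all 17095 genes that received an adjusted p, of which 31.2% passed at an adjusted p under 0.05. Of the 85 members, 84 had a summed count of at least 10 and 83 received an adjusted p. Of these 83, 14 passed (16.9%), 6 higher and 8 lower in shPCBP1, where 17.7% of all genes passed as higher and 13.5% as lower. With edgeR's quasi-likelihood test 10 members passed, 4 higher and 6 lower, where 15.9% of genes passed. TMM scaling in DESeq2 moved the median log2 fold change of all genes from 0.0019 to -0.018. With it 18 members passed, 4 higher and 14 lower, where 28.9% of all genes passed. The members' split between rises and falls thus depended on the scaling.

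No member met the study's thresholds for a differentially expressed gene, that is, adjusted p under 0.05, fold change over 1 in absolute log2 value and more than 10 normalized counts on average, which 1.37% of genes met. With edgeR the count at an adjusted p under 0.05 and the same fold was also 0, where 1.21% of genes passed. An unadjusted p under 0.05 was found in 21 of 83 members with DESeq2 and in 21 of 84 with edgeR. The 2 sets were counted separately and need not match. The share of all genes at that unadjusted level was not counted. It was at least the share that passed after adjustment, 31.2% with DESeq2 and 15.9% with edgeR, so these counts do not mark the members out. The median log2 fold change was -0.0095 over the members and 0.0019 over all genes tested. The members' median had no stable sign, at 0.0030 without shCtrl replicate 1, 0.0044 without shPCBP1 replicate 3 and -0.0318 with protein-coding genes only. Single members ran from -0.156 for RPS27L to 0.236 for RPL7L1.

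Precision was high for these genes, with a median SE of 0.033 on the log2 scale against 0.090 over all genes. A log2 difference over 0.1 in either direction was measured in 6 members (7.23%), in 66.99% of all genes tested and in 53.2% of the 2154 genes that averaged 10000 normalized counts or more. A difference over 0.25 was measured in 0 members, in 33.1% of all genes and in 13.1% of the high-count genes. Of the latter 53.8% passed the test, 40.9% as higher and 12.8% as lower. The median absolute log2 fold change was 0.0405 in the members, 0.164 in all genes and 0.107 in the high-count genes. Normalized counts of the 2 groups did not overlap in 27 members (32.5%) and in 44.2% of all genes. TPM of the 2 groups did not overlap in 45 of the 83 members and in 38.9% of all genes. The members' share was thus below that of all genes in normalized counts and above it in TPM.

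**Figure D2:**
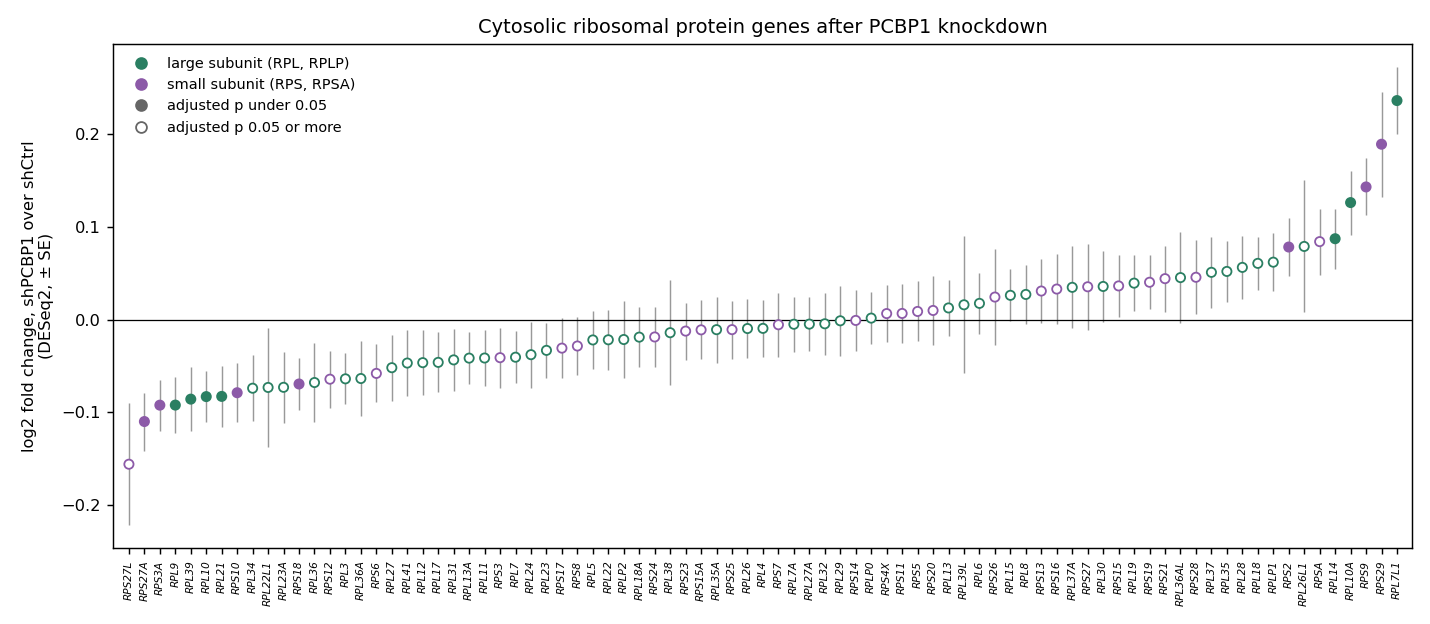
log2 fold change of shPCBP1 over shCtrl with its SE (DESeq2) for the 83 ribosomal protein genes with an adjusted p, ordered by value and coloured by subunit, with filled points for an adjusted p under 0.05. All values lie between -0.156 and 0.236, and the filled points are 6 rises and 8 falls.

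The largest rise was in RPL7L1 (ENSG00000146223.16, chr6:42879616-42889925, plus strand, GRCh38), a nucleolar paralog of RPL7 that acts in the assembly of the large subunit. Its normalized counts were 35634, 35092 and 36129 in the controls and 40314, 43659 and 41847 after knockdown. All shPCBP1 libraries were above all shCtrl libraries, with a log2 fold change of 0.24 (± 0.036 SE, adjusted p = 2.01e-09 by DESeq2). RPS9 (chr19:54200809-54249003, plus strand), a protein that binds early to the small subunit rRNA, gave 75398, 75797 and 76899 normalized counts in the shCtrl libraries against 86212, 82701 and 82889 in the shPCBP1 libraries. The groups did not overlap, and RPS9 rose by 0.14 in log2 units (± 0.031 SE, adjusted p = 3.17e-05 by DESeq2). RPL10A (chr6:35468401-35470785, plus strand), the protein of the mobile L1 stalk, had 59784, 57262 and 57706 normalized counts without and 65549, 63594 and 61535 with knockdown. The lowest shPCBP1 library lay above the highest shCtrl library, and the log2 fold change was 0.13 (± 0.034 SE, adjusted p = 0.00154 by DESeq2). RPL7L1, RPS9 and RPL10A passed in the same direction in all 15 alternative fits.

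RPS29 (chr14:49570984-49599164, minus strand), a zinc-finger protein of the small subunit head and one of the Diamond-Blackfan genes, rose less firmly. Its normalized counts were 11895, 11369 and 9990 in the controls and 12123, 12746 and 13024 after knockdown. The groups were separate but close, with shCtrl replicate 1 just under the lowest knockdown library and shCtrl replicate 3 the lowest of all. The log2 fold change was 0.19 (± 0.057 SE, adjusted p = 0.0044 by DESeq2), and the call was lost with average-length offsets (adjusted p = 0.0888) and without shPCBP1 replicate 3. The value rested in part on shCtrl replicate 3, without which it was 0.12 (DESeq2 adjusted p = 0.0415), and it was 0.24 without shCtrl replicate 1. The mean transcript length of RPS29, 302 bases, was below the fragment length of these libraries, and its effective length was 53.3 to 55.8 bases. On the TPM scale, at 2545, 2520 and 2166 in shCtrl against 2492, 2671 and 2771 in shPCBP1, the groups overlapped.

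RPL14, a large subunit protein, stood at 127820, 122626 and 122257 normalized counts in the controls and at 134992, 131782 and 129080 after knockdown. It rose by 0.087 in log2 units (± 0.032 SE, adjusted p = 0.0247 by DESeq2) and passed in 5 of 15 alternative fits. RPS2, a small subunit protein near the mRNA entry channel, had a log2 fold change of 0.078 and passed in 3 of 15 alternatives. It was not one of the 5 largest rises and is named to complete the 6. Reads of RPS2 are shared with pseudogenes, whose counts came to 4.97% of its own.

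The falls were smaller than the largest rises. RPS27A (ENSG00000143947.15, chr2:55231903-55235853, plus strand), which is made as a fusion of ubiquitin and a small subunit protein, gave 62550, 60736 and 62288 normalized counts in the shCtrl libraries against 58327, 57608 and 56049 in the shPCBP1 libraries. All knockdown libraries were lower, with a log2 fold change of -0.11 (± 0.031 SE, adjusted p = 0.00245 by DESeq2). With average-length offsets the log2 fold change was -0.033 (adjusted p = 0.601), and the effective length of RPS27A, averaged over its transcripts, was 429 to 431 bases in shCtrl and 394 to 418 bases in shPCBP1. In TPM the groups touched, at 1703, 1697 and 1669 in shCtrl against 1593, 1621 and 1671 in shPCBP1.

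RPS3A (chr4:151099624-151104642, plus strand), a small subunit protein near the mRNA exit, had 116919, 115792 and 116545 normalized counts without and 109348, 110224 and 108083 with knockdown. Both groups were tight and separate, with a log2 fold change of -0.092 (± 0.028 SE, adjusted p = 0.00423 by DESeq2), and the call was lost with average-length offsets alone (adjusted p = 0.0551). RPL9 (chr4:39452587-39458931, minus strand), a large subunit protein near the base of the P-stalk, stood at 58592, 57494 and 58434 normalized counts in the controls and at 55215, 55112 and 53407 after knockdown. RPL9 fell by 0.092 in log2 units (± 0.030 SE, adjusted p = 0.0105 by DESeq2) and passed in all 15 alternatives, with adjusted p-values up to 0.0493. RPL39 (chrX:119786504-119791630, minus strand), a very short protein that lines the exit tunnel, gave 27566, 27851 and 26562 normalized counts in the shCtrl libraries against 25996, 25894 and 25351 in the shPCBP1 libraries. Its log2 fold change was -0.086 (± 0.034 SE, adjusted p = 0.0402 by DESeq2), and it passed in 7 of 15 alternatives.

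RPL10 (chrX:154389955-154409168, plus strand), which joins late in large subunit assembly, had 124570, 122627 and 123812 normalized counts without and 118118, 116288 and 115883 with knockdown. The groups did not overlap, the log2 fold change was -0.083 (± 0.028 SE, adjusted p = 0.0118 by DESeq2), and RPL10 passed in 13 of 15 alternatives. RPS18, the member with the highest TPM, stood at 134784, 135235 and 132488 normalized counts in the controls and at 127097, 129889 and 126624 after knockdown. Its log2 fold change was -0.069 (± 0.028 SE, adjusted p = 0.0474 by DESeq2), just inside the threshold, and it passed in 7 of 15 alternatives. The other 2 falls were RPL21 (-0.083, 8 of 15 alternatives) and RPS10 (-0.079, 7 of 15), which are named to complete the 8. RPS10 shares sequence with the readthrough gene RPS10-NUDT3, so its reads may be split.

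All 14 passing members had normalized counts that did not overlap between the groups. In TPM 12 of them, all but RPS29 and RPS27A, were also separate, where 38.9% of all genes were. The 14 were chosen by a test on these same counts, and TPM come from the same reads, so this separation was no independent evidence. The share among all genes that passed was not counted. Nearest to the threshold on the other side were the paralog RPS27L (DESeq2 adjusted p = 0.0548), the laminin receptor protein RPSA (log2 fold change 0.084, adjusted p = 0.0562) and RPL3, an early-binding large subunit protein (-0.064, adjusted p = 0.0594).

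**Figure D3:**
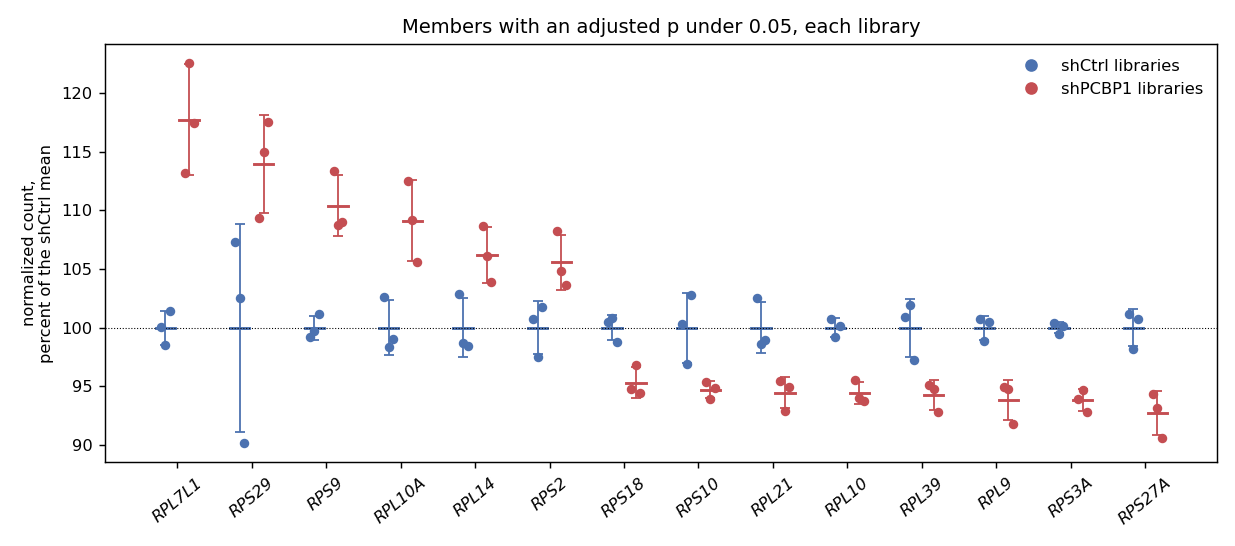
Normalized count in each library as percent of the gene's shCtrl mean, for the 14 ribosomal protein genes with an adjusted p under 0.05, with lines at the group means and bars of ± SD (n = 3), on an axis that does not start at 0. The groups are separate for each gene, and RPS29 has the widest spread among the shCtrl libraries.

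By role, the passing members were spread over both subunits. Of the large subunit genes, 51 were tested, 3 rose and 4 fell (13.7%, where 31.2% of all genes passed), with a median log2 fold change of -0.011. Of the small subunit genes, 32 were tested, 3 rose and 4 fell (21.9%), with a median of 0.0027.

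The P-stalk recruits the elongation factors and is formed by RPLP0 with RPLP1 and RPLP2; 0 of these 3 genes passed. RPLP0 gave 232892, 230889 and 238386 normalized counts in the shCtrl libraries against 236209, 233458 and 233264 in the shPCBP1 libraries, with a log2 fold change of 0.0016 (± 0.028 SE). RPLP1 had 62813, 60968 and 63995 against 65296, 66206 and 64494, with a log2 fold change of 0.062 (± 0.031 SE, adjusted p = 0.127 by DESeq2). RPLP2 had 54534, 51529 and 53539 against 55815, 51103 and 50323, with a log2 fold change of -0.021 (± 0.041 SE). Groups overlapped for RPLP0 and RPLP2 and were separate for RPLP1.

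RPL5 and RPL11 form with the 5S rRNA the particle that can bind MDM2 when ribosome assembly fails. RPL5 had 85517, 83963 and 86018 normalized counts without and 86252, 83634 and 81755 with knockdown, a log2 fold change of -0.022 (± 0.032 SE). RPL11 had 67696, 66678 and 65016 against 65187, 64694 and 63863, a log2 fold change of -0.041 (± 0.030 SE). Neither passed, and the groups overlapped in both genes.

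Of the 19 members linked to Diamond-Blackfan anemia, RPS29 rose and RPS10 fell (10.5%, where 31.2% of all genes passed), and the median log2 fold change was -0.0097. With average-length offsets or without shPCBP1 replicate 3, 0 rose and 0 fell, and without that library the median was 0.0139. RPS19, the gene most often mutated in that anemia, stood at 68408, 67423 and 67967 normalized counts in the controls and at 70827, 69664 and 69053 after knockdown. The RPS19 groups were separate, with a log2 fold change of 0.040 (± 0.029 SE, adjusted p = 0.313 by DESeq2). RPS14, whose loss of one copy marks the 5q- syndrome, had 70159, 68196 and 67170 against 69609, 69217 and 66556, a log2 fold change of -0.00095 (± 0.033 SE). RPS6, the small subunit protein phosphorylated by S6 kinase, had 81595, 80975 and 81588 against 79760, 79075 and 75701. The RPS6 groups did not overlap, with a log2 fold change of -0.058 (± 0.031 SE, adjusted p = 0.153 by DESeq2). RPS3, which lines the mRNA entry channel, had 122744, 120747 and 126928 against 122885, 119998 and 117155, a log2 fold change of -0.041 (± 0.032 SE, adjusted p = 0.369 by DESeq2).

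Paralogs of core ribosomal proteins can replace their partner or act beside it, and several are restricted to muscle or testis. In these cells all 8 were far below their partners in TPM. RPL36AL was the highest, at 21.6% ± 2.09 of RPL36A in shCtrl and 23.6% ± 1.14 in shPCBP1 (SD, n = 3). RPL22L1 stood at 11.3% ± 0.422 of RPL22 in shCtrl and 10.5% ± 0.325 in shPCBP1. RPL3L, the muscle paralog of RPL3, had 0.0341 to 0.331 TPM over the 6 libraries and received no adjusted p from DESeq2. RPL10L, the testis paralog of RPL10, had 5 estimated counts in all 6 libraries together and did not enter the fit.

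Among the paralogs, RPL7L1 was the one that passed. RPL7L1 stood at 4.43%, 4.48% and 4.45% of RPL7 in shCtrl and at 5.20%, 5.62% and 4.98% in shPCBP1, while RPL7 itself had a log2 fold change of -0.041 (± 0.028 SE, adjusted p = 0.292 by DESeq2). RPS27L, a p53-inducible paralog of RPS27, had lower values after knockdown without passing. Its normalized counts were 2361, 2491 and 2385 in the controls and 2126, 2235 and 2131 after knockdown, separate groups with a log2 fold change of -0.16 (± 0.065 SE, adjusted p = 0.0548 by DESeq2). RPS27L passed in 6 of 15 alternative fits, with edgeR's quasi-likelihood test at an adjusted p of 0.0499. Relative to RPS27, RPS27L was at 1.583%, 1.599% and 1.605% of TPM in shCtrl and at 1.43%, 1.40% and 1.38% in shPCBP1.

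For the remaining paralogs the gene test did not pass. RPL26L1 was at 4.32% ± 0.373 of RPL26 in shCtrl and 4.96% ± 0.102 in shPCBP1, with a log2 fold change of 0.079 (± 0.071 SE). RPL39L was at 1.51% ± 0.0343 of RPL39 and 1.65% ± 0.0706, with a log2 fold change of 0.016 (± 0.074 SE). RPL22L1 had a log2 fold change of -0.073 (± 0.064 SE) and RPL36AL of 0.045 (± 0.049 SE). Counts of RPL26L1, RPL39L and RPL22L1 were a small fraction of those of their partners, so that reads placed on the wrong copy could weigh on their values. RPL36AL was closer to its partner, with a mean of 7584 normalized counts against 21113 for RPL36A.

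Processed pseudogenes are another source of shared reads, since retrocopies of these genes are scattered over the genome. The 1598 annotated pseudogenes named after 78 members held counts equal to 0.655% of the members' counts. For RPL23A, a large subunit protein at the exit tunnel, the pseudogene counts were 26.3%, 27.6% and 21.3% of the gene's own in shCtrl and 30.8%, 31.7% and 31.1% in shPCBP1. For RPL36A they were 15.2% to 23.2% in shCtrl and 22.7% to 25.2% in shPCBP1. Both genes were singled out after their values were seen. Adding the pseudogene counts to each member left 14 members passing, the same 14.

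The start letters of the sequences above were set beside the response. Of the 46 members whose annotated transcript opened with C and at least 4 further pyrimidines, 2 rose and 7 fell, with a median log2 fold change of -0.013 and a range from -0.11 to 0.14. Of the 21 tested members with another annotated start, 3 rose and 1 fell, with a median of 0.017. RPS9 and RPL14 were the rises with a tract, and RPL9 was the fall without one. RPS29, counted as a rise without a tract, had a RefSeq start 12330 bases from the gene annotation's start, and RPL14 one 538 bases away. Their places in the split are therefore uncertain. RPS2 had no matched start sequence and is in neither group. Over all genes 17.7% passed as higher and 13.5% as lower. With TMM scaling 1 rose and 10 fell with the tract and 3 rose and 3 fell without it, and without shPCBP1 replicate 3 the counts were 3 and 3 with it and 2 and 1 without it. The split was not tested.

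At the level of transcripts, each transcript's share of its gene's TPM was compared with limma on the log2 ratio of the transcript to the rest of its gene, over 82388 transcripts of all genes. Among 757 transcripts of 82 members, 0 met both an adjusted p under 0.05 and a shift over 5 percentage points, where 0.131% of all transcripts did. No member transcript had an adjusted p under 0.05, the lowest being 0.0554, and 115 had an unadjusted p under 0.05 (15.2%, against 10.4% of all transcripts). Shares over 5 points apart with no overlap between the groups were found in 12 transcripts of 8 members, 1.59% of those tested, against 6.17% of all transcripts. The transcripts described next were chosen after their values were seen, and their adjusted limma p-values were between 0.0852 and 0.461.

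RPLP2-201, the main coding transcript of RPLP2, held 89.4%, 88.6% and 89.3% of the gene in shCtrl and 82.6%, 82.0% and 83.0% in shPCBP1. RPLP2-208, annotated without a coding sequence, held 8.11%, 9.08% and 8.56% in shCtrl and 14.2%, 14.8% and 14.1% in shPCBP1. The shares of the pair were tight within each group and differed in opposite directions, and their adjusted limma p-values were 0.0939 and 0.0852.

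RPS4X, the X-linked copy of a small subunit protein, had a similar pair. RPS4X-201, its full-length coding transcript of 1474 bases, held 84.1%, 84.8% and 86.9% in shCtrl and 78.9%, 75.2% and 76.9% in shPCBP1. RPS4X-202, 594 bases long and annotated without a coding sequence, held 15.2%, 14.7% and 12.5% in shCtrl and 20.3%, 24.1% and 22.2% in shPCBP1. At the gene level RPS4X had a log2 fold change of 0.0064.

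In RPL11 a retained-intron transcript, RPL11-205, held 17.1%, 14.7% and 17.2% of the gene in shCtrl and 21.7%, 23.5% and 25.5% in shPCBP1. The coding transcript RPL11-201 went from 58.1% ± 1.36 to 51.8% ± 2.71 (SD, n = 3). RPL10-209, a coding transcript of RPL10, held 15.1%, 14.6% and 15.2% in shCtrl and 21.8%, 21.6% and 21.0% in shPCBP1. RPL10 and RPL11 thus had separate groups for these transcripts, with adjusted limma p-values of 0.147 for RPL10-209 and 0.257 for RPL11-205.

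RPLP0-218 was nearly absent in shCtrl, at 0.524, 2.52 and 0 TPM, and stood at 146, 142 and 207 TPM in shPCBP1. That was 0.031% and 5.10% of RPLP0 on average (limma adjusted p = 0.0918). RPS27A-204, the 422-base transcript of RPS27A, held 18.9%, 19.0% and 15.1% in shCtrl and 21.2%, 22.9% and 26.6% in shPCBP1. RPS9-201 went from 82.3% ± 0.959 to 76.9% ± 1.51, and its own level, 1641, 1708 and 1738 TPM in shCtrl against 1752, 1694 and 1776 TPM in shPCBP1, overlapped between the groups. RPL36-201 went from 40.8% to 47.2% while RPL36-205, whose annotated start lies upstream, went from 44.1% to 36.8%, without either passing.

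**Figure D4:**
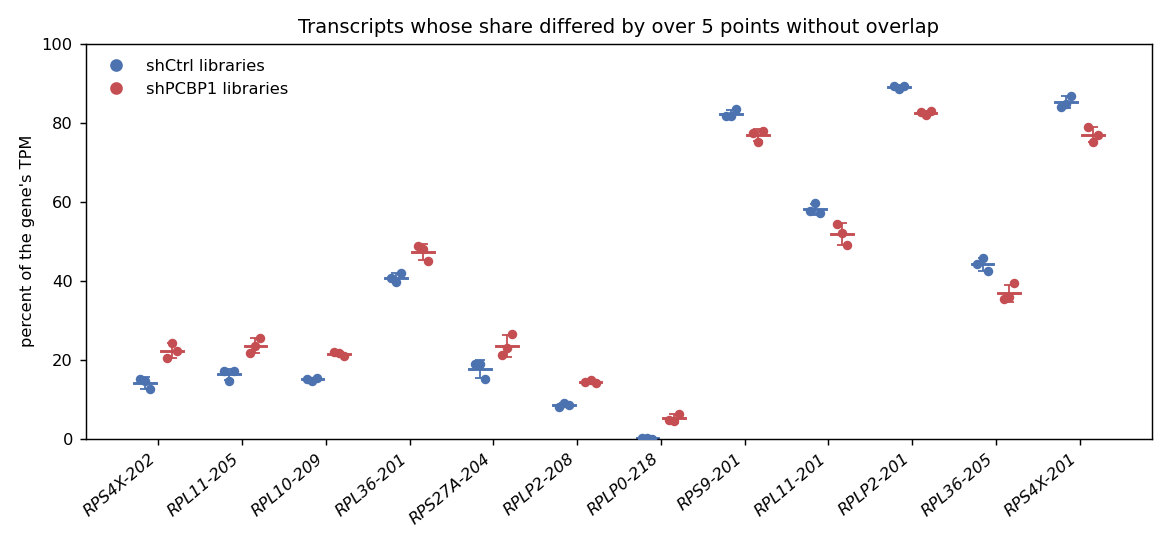
Percent of the gene's TPM held by each of the 12 member transcripts whose share differed by over 5 points with no overlap between the groups, 1 point per library, with group means and bars of ± SD (n = 3). The lower coding share and higher second transcript are visible for RPLP2 (89.1% to 82.5% and 8.58% to 14.4%) and for RPS4X (85.3% to 77.0% and 14.1% to 22.2%).

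Summed over the members, coding transcripts held 91.0% ± 0.184 of TPM in shCtrl and 90.6% ± 0.118 in shPCBP1. Retained-intron transcripts held 5.11%, 4.99% and 4.89% in shCtrl and 5.29%, 5.36% and 5.34% in shPCBP1, with no overlap. The same share over all genes is not given here, so this difference cannot be called particular to the members. Transcripts marked for nonsense-mediated decay held 1.01% ± 0.0069 in shCtrl and 0.966% ± 0.0265 in shPCBP1. Salmon divides reads among transcripts that overlap almost completely, so these shares are estimates, and they were not tested as sums.

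The genes outside the rule that make or control ribosomes were set beside the members. FAU gave 30394, 29812 and 30146 normalized counts in the shCtrl libraries against 33124, 31156 and 31622 in the shPCBP1 libraries and rose by 0.086 in log2 units (DESeq2 adjusted p = 0.0428), a call lost in 13 of 15 alternatives. RACK1, the scaffold protein of the small subunit, had a log2 fold change of 0.015 (± 0.030 SE).

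Ribosome biogenesis factors, which transcribe, cut and fold rRNA and place the proteins on it, had a higher median than the members. Of 75 factors, all tested, 50 rose and 1 fell, 68.0% against the 31.2% of all genes, with a median log2 fold change of 0.17. Some of the factors averaged 10000 normalized counts or more. Among all genes at that level 53.8% passed, 40.9% as higher, with a median of 0.070. Across the alternatives 35 to 53 of them rose and the median stayed between 0.14 and 0.21. PPAN, a large subunit assembly factor, had 8251, 7012 and 7734 normalized counts without and 10831, 10460 and 9415 with knockdown, a log2 fold change of 0.42 (± 0.062 SE, adjusted p = 4.01e-10 by DESeq2). PPAN shares exons with the readthrough gene PPAN-P2RY11, so its reads may be split. UTP20, of the small subunit processome, rose by 0.39 (± 0.056 SE, adjusted p = 9.69e-11 with DESeq2), from 8900, 8131 and 9044 to 12359, 11064 and 10784 normalized counts. TAF1D, part of the RNA polymerase I promoter factor SL1, was the fall, by 0.23 in log2 units (± 0.040 SE, adjusted p = 1.09e-07 by DESeq2).

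Other mRNAs with a TOP sequence code mainly for translation factors, and 24 of them were listed. Of these 3 rose and 3 fell, where 31.2% of all genes passed, with a median of -0.022. With TMM scaling 2 rose and 5 fell, and with size factors computed without the members or with protein-coding genes only 2 rose and 7 fell. TPT1, which encodes the translationally controlled tumor protein, stood at 50293, 49811 and 50382 normalized counts in the controls and at 42733, 42218 and 41574 after knockdown, a log2 fold change of -0.25 (± 0.030 SE, adjusted p = 2.42e-15 by DESeq2). EEF1B2, a subunit of elongation factor 1, fell by 0.23 (± 0.037 SE, adjusted p = 1.83e-08 by DESeq2). IPO5, an importin that carries ribosomal proteins into the nucleus, rose by 0.23, and EIF4B, an initiation factor, by 0.19. The fold changes of TPT1 and EEF1B2 were more negative than that of any member.

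Of 17 regulators of TOP mRNAs and related factors, 8 rose and 1 fell, with a median log2 fold change of 0.075. That was 52.9%, where 31.2% of all genes and 53.8% of genes averaging 10000 normalized counts or more passed. LARP1, the repressor and stabilizer of TOP mRNAs, gave 41703, 39584 and 41712 normalized counts in the shCtrl libraries against 58998, 55378 and 54798 in the shPCBP1 libraries. LARP1 rose by 0.46 in log2 units (± 0.038 SE, adjusted p = 1.36e-31 by DESeq2), with all knockdown libraries above all controls. RPS6KB2, one of the S6 kinases, fell by 0.36 (± 0.046 SE, adjusted p = 1.30e-13 by DESeq2), from 7778, 7381 and 7792 to 5917, 6093 and 5831 normalized counts. AAR2 rose by 0.30 (± 0.063 SE), although it is known for assembly of the U5 snRNP and not as a chaperone of ribosomal proteins.

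**Figure D5:**
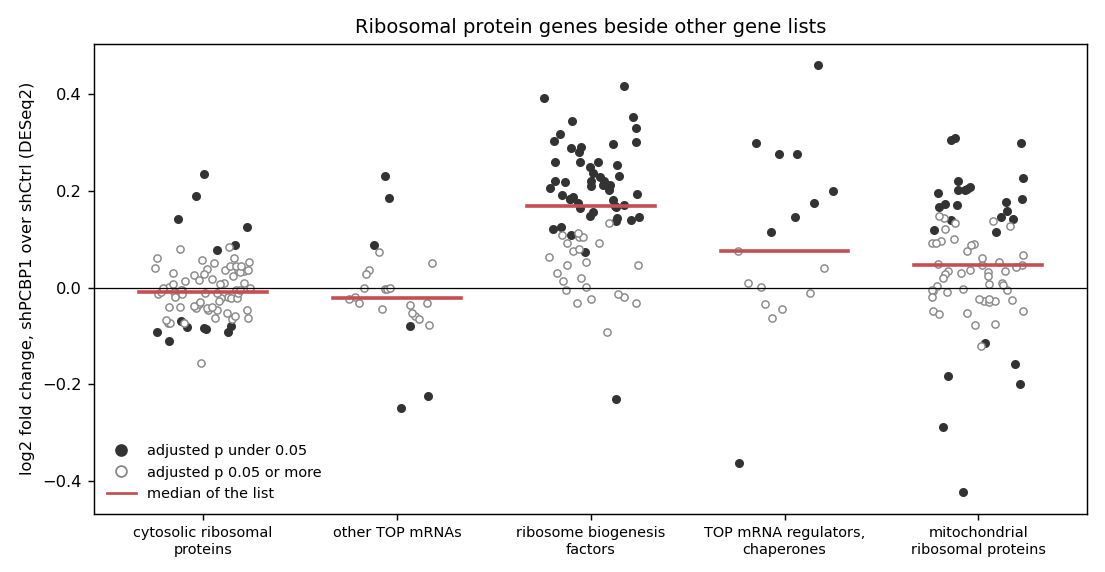
log2 fold change of shPCBP1 over shCtrl (DESeq2) for each tested gene of 5 lists, with filled points for an adjusted p under 0.05 and a red line at the list's median; points are spread sideways at random. The ribosomal proteins lie in a narrow band around a median of -0.0095, and the ribosome biogenesis factors around 0.17.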

How the data were processed

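The authors quantified poly-A selected, paired-end reads (150 cycles) with Salmon 1.10.2. The deposited tables give estimated counts per transcript, which are not normalized and need not be whole, and the deposited TPM values, which the authors' software scaled by effective length. The annotation release of the index is not given in the sources used here. Transcripts were matched by identifier without version to GENCODE release 44 (251612 of 252045), and the rest, 0.136% to 0.147% of a library's counts, were left out.

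Gene values were the rounded sums of the estimated counts of their transcripts, and genes reaching 10 counts over the libraries were fitted with DESeq2 1.42.0 (R 4.3.3) on group alone. edgeR 4.0.16 and other filters, scalings and sample sets were alternatives. Transcript shares were tested with limma 3.58.1 on log2 ratios with a pseudocount of 0.1 TPM, requiring a mean of 10 counts for a transcript and for the rest of its gene. The scripts were tested on simulated data. Within groups, counts of library pairs differed by 6.48 to 16.4 times the sampling noise (chi-square per degree of freedom), so all 6 libraries were counted.

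Start sequences are RefSeq's on GRCh38.p14. Genes named were PCBP1, the 5 members highest in TPM, the 5 largest rises and falls among passing members, the paralogs with their partners, RPS19, RPL5, RPL11, RPS14, RPLP0, RPLP1, RPLP2, RPS6 and RPS3, and up to 2 rises and 2 falls of each other list; others are said to be named after their values were seen or to complete a count. Members and lists were chosen with earlier results of these data known. Some listed genes are not reported here.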

Additional observations from a re-analysis of the deposited data

How the results depend on the processing

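The knockdown of PCBP1, with a log2 fold change between -2.49 and -2.42, and the count of 0 ribosomal protein genes past all thresholds held in all 15 alternatives. Of the 14 passing members, RPL7L1, RPS9, RPL10A and RPL9 passed in all 15, and none changed sign. The number passing was 8 with no filter on low counts, where 12.5% of all genes passed. It was 20 (4 higher, 16 lower) with protein-coding genes only, where 34% of the genes tested passed. With a mean count over 50 it was 17 (5 higher, 12 lower), where 34% passed. With average-length offsets it was 10, where 23.7% passed. Size factors computed without the members, an alternative added after seeing the data, gave 18 (4 higher, 14 lower), where 31% passed. Leaving out 1 library gave 7 to 16, with 7 without shPCBP1 replicate 2 (25.7% of all genes) and 9 without shCtrl replicate 1 (28.6%). The 16 came without shCtrl replicate 3, where 30.5% of all genes passed. The same replicate numbers did not pair the samples (correlations of deviations 0.139, -0.0127 and -0.134 over 16153 genes). With the replicate block 9 members passed, 5 higher and 4 lower, where 28.9% of all genes passed. With that block 0 of the 82388 transcripts of all genes were called. The members' median log2 fold change ran from -0.0322, with size factors without the members, to 0.0044, without shPCBP1 replicate 3, and was 0.0352 after a trend on transcript length was removed. With a pseudocount of 1 TPM 1 of 757 member transcripts was called (RPLP0-218), where 201 of 82388 over all genes were. With at least 50 counts 2 of 641 were called (RPLP2-201 and RPLP2-208), where 153 of 50560 over all genes were. The cause of these shifts was not tested. The share difference of -0.461 points of TPM was -0.172 points of estimated counts, a smaller total share, with knockdown to control ratios of 0.974 and 0.973. Named members near 0 changed sign: with average-length offsets RPS27 (-0.0106), RPL7 (0.0115) and RPL22 (0.0616); with TMM, protein-coding genes only and size factors without the members RPL39L (-0.0013, -0.0061 and -0.00671) and RPLP0 (-0.0157, -0.0206 and -0.0212), which was also -0.0129 with edgeR and -0.0092 with a mean count over 50. Without 1 library in turn, values ran from -0.0173 to 0.0711 for RPS27, -0.0238 to 0.0012 for RPL26, -0.0137 to 0.0186 for RPS14, -0.0074 to 0.0163 for RPLP0 and -0.0691 to 0.0067 for RPLP2. The median SE of a member's log2 fold change was 0.033, so single values smaller than that lay within their error.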

Other observations

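Mitochondrial ribosomal proteins, encoded in the nucleus, build the separate ribosome that translates the mitochondrial genome. Of 78 such genes tested, 21 rose and 6 fell (34.6%, where 31.2% of all genes passed), with a median log2 fold change of 0.047. MRPL57 gave 2296, 2127 and 2247 normalized counts in the shCtrl libraries against 2923, 2608 and 2743 in the shPCBP1 libraries, a log2 fold change of 0.31 (± 0.069 SE, adjusted p = 5.66e-05 by DESeq2). MRPL1 rose by 0.30 (± 0.068 SE, adjusted p = 6.50e-05 by DESeq2). MRPS36, since recognized as a part of the oxoglutarate dehydrogenase complex, had 3658, 3532 and 3520 against 2522, 2734 and 2731, a log2 fold change of -0.42 (± 0.060 SE, adjusted p = 6.82e-11 by DESeq2). MRPS34 fell by 0.29 (± 0.052 SE, adjusted p = 4.10e-07 by DESeq2). Across the alternatives 13 to 24 of these genes rose and 5 to 9 fell.

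Genes of the p53 response are listed because free RPL5 and RPL11 can stabilize p53, although K562 cells lack functional p53. Of 13 tested, 4 rose and 2 fell (46.2%, where 31.2% of all genes passed), with a median log2 fold change of -0.0034 that ran from -0.045 to 0.048 across the alternatives. CDKN1A, a cell cycle inhibitor, had 2874, 2905 and 3070 normalized counts without and 4947, 4837 and 5219 with knockdown, a log2 fold change of 0.76 (± 0.056 SE, adjusted p = 8.05e-39 by DESeq2). MDM2, the p53 ubiquitin ligase, rose by 0.27 (± 0.042 SE, adjusted p = 1.70e-09 by DESeq2). TP53INP1 fell by 0.82 (± 0.154 SE, adjusted p = 1.30e-06 by DESeq2), and RRM2B, a subunit of ribonucleotide reductase, by 0.20 (± 0.062 SE, adjusted p = 0.00534 by DESeq2).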
